A study of Mus musculus with 2 samples.

Results

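Transcripts of 7 glutamate receptor genes were followed through the cell classes of inguinal white adipose tissue (iWAT), which lies under the skin, by single-nucleus RNA-Seq. The genes were chosen by name from earlier results of these same data, out of 31053 genes in the deposited matrices, and all 7 have 1 row each. They are the AMPA receptor subunits Gria1, Gria2, Gria3 and Gria4, the NMDA receptor subunit Grin2b, the delta receptor Grid1 and the metabotropic receptor Grm7. Because measured levels entered the choice, the class and library differences below are descriptions, with no test. There was 1 WT-labelled library and 1 KO-labelled library, each from the pooled iWAT of 3 male mice fed a Western diet for 4 weeks. The study's Lexis-AdKO mice carry floxed Lexis alleles, a long noncoding RNA gene, and an Adipoq-cre transgene, which acts in adipocytes. Its Lexis-AdWT mice are littermates with the floxed alleles and no Cre, both on a C57BL/6 background. The study gives an age range for most of its experiments but no age for these mice. File names carry the opposite genotype for both libraries and Lexis was not analysed here, so directions are those of the sample labels, and genotype and library cannot be told apart.

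Ionotropic glutamate receptors are cation channels built of 4 subunits around a pore, and in neurons AMPA receptors carry the fast component of excitatory transmission. Within them, Gria2 is the subunit that makes the channel nearly impermeable to calcium. NMDA receptors need Grin1 together with a Grin2 subunit and pass calcium when glutamate binds and a magnesium block is lifted. Delta receptors are not opened by glutamate, and they bind secreted cerebellins. Metabotropic receptors such as Grm7 couple to G proteins and lower cyclic AMP.

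All 7 are long genes, and most of a nuclear transcript of such a gene is intron. On the mouse build mm10 (GRCm38), in the RefSeq annotation, the shortest is Gria2, at chr3:80681450-80804227, which spans 122778 bases. Gria3 (chrX:41400819-41678601) spans 277783 bases, Gria1 (chr11:57011571-57330244) 318674 bases, Gria4 (chr9:4417893-4796234) 378342 bases and Grin2b (chr6:135713221-136173615) 460395 bases. The longest are Grid1 (chr14:34820003-35583387), with 763385 bases, and Grm7 (chr6:110645349-111567230), with 921882 bases. Gene length bears on these data because the libraries recovered long genes unequally. Genes spanning more than 100000 bases took 28.2% of the unique molecular identifiers (UMIs, 1 per captured molecule) of kept nuclei in the KO-labelled library and 11.8% in the WT-labelled library. Classes were therefore compared within a library first.

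After filtering, 3503 nuclei with a median of 1195 UMIs were kept from the WT-labelled library and 2852 nuclei with a median of 3879 UMIs from the KO-labelled library. In 15 of the 18 clusters at least 90% of nuclei belonged to a single library. Adipocyte-like nuclei numbered 418 in the WT-labelled library and 894 in the KO-labelled library, and nuclei like adipogenic stem and precursor cells and fibroblasts (ASPC-like) numbered 297 and 784. Different clusters held these classes in each library. The share of lymphocyte-like nuclei was 57.6% in the WT-labelled library and 3.65% in the KO-labelled library, and 149 nuclei like lymph node stroma were found in the WT-labelled library alone, although the protocol states that the lymph node was left out. The libraries shared 12 cell barcodes, 10 of them among kept nuclei of both.

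In the stroma of the KO-labelled library, Gria3 and Gria4 were the leading members. Gria3 gave 876 UMIs in ASPC-like nuclei, a level of 265 CPM (the gene's UMIs scaled to a common class total of 1000000; interval 248 to 283), and 13 UMIs or 1.50 CPM (0.801 to 2.57) in adipocyte-like nuclei. The measured level was 176 times higher in the stroma (102 to 332), and 8 of the 13 adipocyte UMIs lay in 3 nuclei. Gria4 gave 591 UMIs (179 CPM, 165 to 194) in ASPC-like and 11 UMIs (1.27 CPM, 0.635 to 2.28) in adipocyte-like nuclei, a ratio of 140.5 (77.9 to 283). At equal depth 0.112% of adipocyte-like nuclei had a UMI of Gria4, under the 3.33% that 0 of 90 lymphocyte-like nuclei allows. The Gria4 ratio is therefore one of measured levels and not of expression. Both ratios moved with the doublet filter, and without it they were 83.4 (58.0 to 124) for Gria3 and 34.3 (25.5 to 47.0) for Gria4. All intervals are 95% intervals for counting error only, since there were no replicates. Of all UMIs of these genes in the kept nuclei of that library, ASPC-like nuclei held 93.1% for Gria3 and 96.6% for Gria4. Grm7 was much rarer in the same nuclei, with 37 UMIs (11.2 CPM, 7.88 to 15.4) against 17 UMIs (1.97 CPM, 1.15 to 3.15) in adipocyte-like nuclei, a ratio of 5.69 (3.12 to 10.8).

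In the WT-labelled library the stromal level of Gria3 was lower and the contrast with adipocytes smaller. ASPC-like nuclei held 50 UMIs of Gria3 (67.2 CPM, 49.9 to 88.6) and adipocyte-like nuclei 19 UMIs (9.73 CPM, 5.86 to 15.2), a ratio of 6.91 (4.00 to 12.4). Of all Gria3 UMIs in kept nuclei of this library, ASPC-like nuclei held 32.5%. At equal depth the shares of nuclei with Gria3 were 3.47% (1.60 to 6.49) and 0.980% (0.268 to 2.49), which overlap in their intervals. In both libraries the Gria3 ratio is one of measured levels and not of expression, because at equal depth the share of adipocyte-like nuclei with Gria3 overlapped that of lymphocyte-like nuclei. Gria4 was represented by 5 UMIs in ASPC-like and 1 UMI in adipocyte-like nuclei, at 6.72 and 0.512 CPM, and the ratio of 13.1 has an interval of 1.47 to 621. Grm7 was not detected in any class of this library. In ASPC-like nuclei the count of 0 allows up to 4.03 CPM, which lies below the 11.2 CPM of the KO-labelled library.

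In adipocyte-like nuclei of the KO-labelled library, Grin2b and Grid1 were the leading members by measured level. At equal depth neither share was separated from that of the 90 lymphocyte-like nuclei there. Both shares lay above those of ASPC-like nuclei, which were 0 of 761. In the WT-labelled library Grid1 is not read as expression. Grin2b gave 303 UMIs (35.1 CPM, 31.2 to 39.2) in adipocyte-like nuclei of the KO-labelled library and 225 UMIs (115 CPM, 101 to 131) in those of the WT-labelled library. No UMI of Grin2b fell in ASPC-like nuclei of either library. Against the 3 counts that a count of 0 allows over the class, its level was at least 38.6-fold higher in adipocyte-like nuclei in the KO-labelled library and at least 28.6-fold higher in the WT-labelled library. With counting error included, the ratio of ASPC-like to adipocyte-like nuclei was at most 0.0320 and 0.0434. Over all kept nuclei, 99.3% and 99.1% of Grin2b UMIs lay in adipocyte-like nuclei. Grid1 gave 440 UMIs (50.9 CPM, 46.3 to 55.9) in adipocyte-like and 5 UMIs (1.51 CPM, 0.491 to 3.53) in ASPC-like nuclei of the KO-labelled library, and the adipocyte level was 33.7 times higher (14.3 to 104). Grid1 in the WT-labelled library had 7 UMIs in adipocyte-like nuclei (3.58 CPM, 1.44 to 7.38) and 0 in ASPC-like nuclei. All kept nuclei there that were not adipocyte-like held 1 UMI of Grid1, a measured ratio of 16.7 (2.15 to 754).

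The other AMPA receptor subunits were close to absent. Gria1 had 5 UMIs in the KO-labelled library, 4 in adipocyte-like and 1 in ASPC-like nuclei, and Gria2 had 3 UMIs, 1 each in ASPC-like, adipocyte-like and myeloid-like nuclei. Neither was detected in kept nuclei of the WT-labelled library. For ASPC-like nuclei of the KO-labelled library this gives 0.303 CPM for each gene, with intervals that end at 1.69 CPM. The stromal AMPA subunit transcripts in these nuclei were therefore those of Gria3 and Gria4, with Gria2 far below both also per length, at 0.246 CPM per 100 kb of gene span against 95.4 for Gria3 and 47.3 for Gria4. On the same scale, Grin2b and Grid1 in adipocyte-like nuclei of that library lay at 7.62 and 6.67, and Grm7 in ASPC-like nuclei lay at 1.21.

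**Figure D1:**
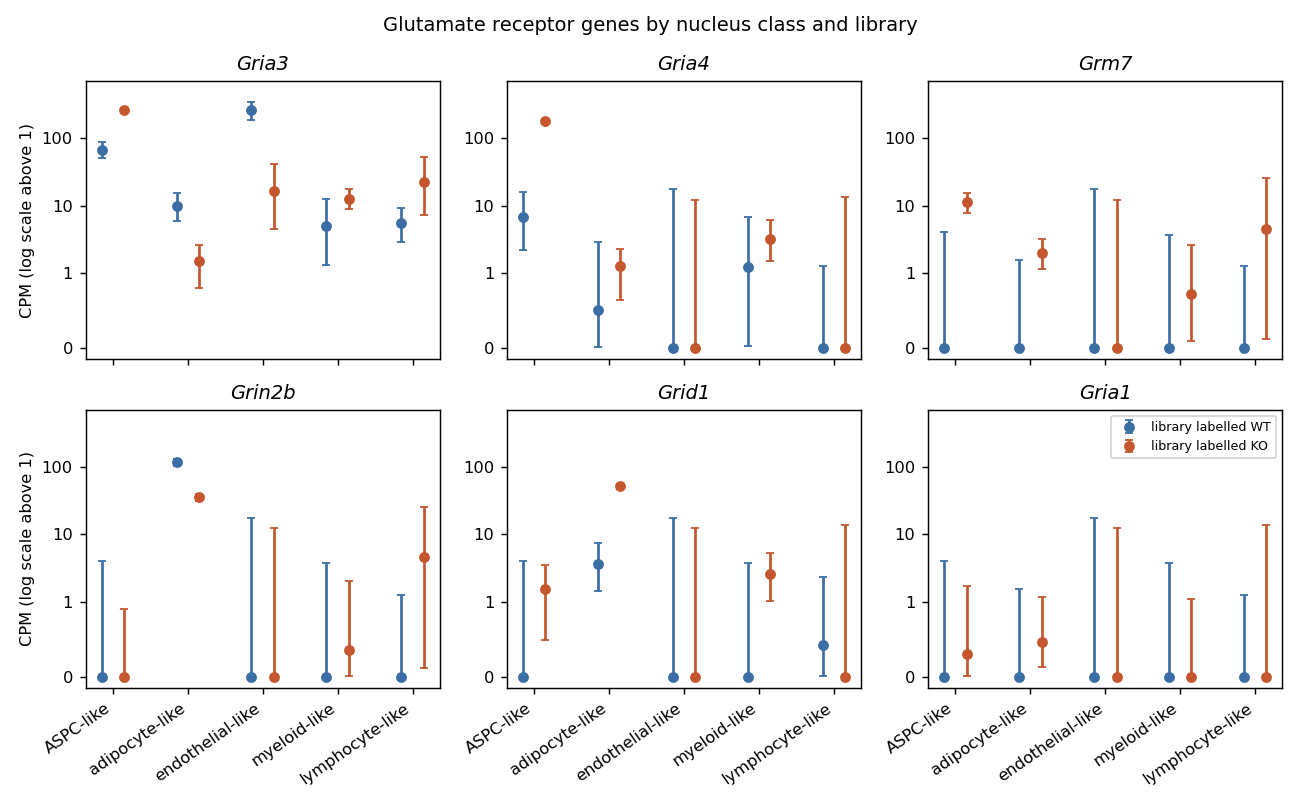
Level of 6 members in 5 nucleus classes, in CPM on an axis that is logarithmic above 1, for the WT-labelled library (blue) and the KO-labelled library (orange). Points are summed UMIs over the class, bars are exact Poisson 95% intervals for counting error, and at a count of 0 the bar ends at 3 counts. Gria3 and Gria4 peak at 265 and 179 CPM in ASPC-like nuclei of the KO-labelled library, while Grin2b and Grid1 stand highest in adipocyte-like nuclei, and Gria1 stays below 1 CPM.

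Members were counted where both classes together held at least 50 UMIs, which 5 of the 7 did in the KO-labelled library, and called higher at a ratio of at least 2. Of these 5, 3 were higher in ASPC-like nuclei (Gria3, Gria4 and Grm7) and 2 in adipocyte-like nuclei (Grin2b and Grid1). Stromal Grm7 is not read as expression, since its share of nuclei at equal depth overlapped that of adipocyte-like nuclei. The same rule was met by 21.6% of all 12068 counted genes towards the stroma and 17.3% towards adipocytes, and among genes spanning more than 100000 bases by 30.5% and 21.2%. In the WT-labelled library 2 members were counted, with Gria3 higher in ASPC-like and Grin2b higher in adipocyte-like nuclei. There, 15.1% of all counted genes and 19.3% of the long ones passed towards the stroma, and 14.3% and 18.1% towards adipocytes. The median log2 ratio of stroma over adipocytes was 0.16 over all counted genes of the KO-labelled library and 0.07 over those of the WT-labelled library. No median is given for the counted members of either library, which lay on opposite sides and of which Grin2b had only a bound.

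Outside stroma and fat, Gria3 was found in endothelial-like nuclei and in a cluster that stayed unnamed, each on few UMIs. Endothelial-like nuclei of the WT-labelled library held 44 UMIs of Gria3 in 22 of 95 nuclei, at most 4 in 1 nucleus, a level of 258 CPM (187 to 346), above the 67.2 CPM (49.9 to 88.6) of ASPC-like nuclei of that library. Those of the KO-labelled library held 4 UMIs in 2 of 122 nuclei (16.3 CPM, 4.45 to 41.8), below the 265 CPM of ASPC-like nuclei there. The measured ratio of the KO-labelled library to the WT-labelled library was 0.0634 (0.0165 to 0.174). With at least 1000 genes per nucleus it was 0.249. At equal depth 0.980% of endothelial-like nuclei of the KO-labelled library had a UMI of Gria3 (1 of 102, 0.0248 to 5.34). This overlaps the 1.11% of lymphocyte-like nuclei there (1 of 90, 0.0281 to 6.04), so that level is not read as expression. Markers of vessel type in this class differed between the libraries. Prox1, the transcription factor that defines lymphatic endothelium and was picked after its values had been seen, stood at 351 CPM in endothelial-like nuclei of the WT-labelled library and 28.6 CPM in those of the KO-labelled library. Lyve1, another lymphatic marker, stood at 556 and 36.7 CPM, and Glycam1, a marker of high endothelial venules, at 679 and 4.08 CPM, both picked in the same way. Among the WT-labelled nuclei, 16 of the 22 with Gria3 also had a UMI of Prox1, and the 29 nuclei with Prox1 held 32 of the 44 Gria3 UMIs. A UMI of Lyve1 was found in 9 of the 22, and one of Glycam1 in 2. Markers of other cell types in this class moved with the library too, since 10 lymphocyte markers (10 and 1 detected) summed to 779 and 4.08 CPM, 8 lymphoid stroma markers to 1294 and 326 CPM and, in the other direction, 10 adipocyte markers to 925 and 2987 CPM. The part of these markers in the difference between the libraries was not tested. The unnamed cluster, also picked after its values had been seen, held 8 UMIs of Gria3 in 3 of 10 nuclei of the KO-labelled library (276 CPM, 119 to 544) and 16 UMIs in 12 of 97 nuclei of the WT-labelled library (66.4 CPM, 38.0 to 108).

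Among immune nuclei the members were scarce. Gria3 stood at 12.6 CPM (8.80 to 17.6) in myeloid-like nuclei of the KO-labelled library, from 35 UMIs in 10 of 842 nuclei, of which the top 3 nuclei held 23. Myeloid-like nuclei of the WT-labelled library had 4 UMIs (4.90 CPM) and 2016 lymphocyte-like nuclei had 13 (5.42 CPM). The 104 lymphocyte-like nuclei of the KO-labelled library had 5 UMIs, all in 1 nucleus. Grin2b was found as 1 UMI each in the myeloid-like and lymphocyte-like nuclei of the KO-labelled library, and in the myeloid-like nuclei Gria4 had 9 UMIs (3.25 CPM, 6 of them in 1 nucleus), Grid1 7 and Grm7 2.

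To compare shares of nuclei with a UMI, UMIs were drawn down to 1000 in each nucleus, because adipocyte-like nuclei of the KO-labelled library were the deepest (median 7848.5 UMIs) and lymphocyte-like nuclei of the WT-labelled library the shallowest (median 999 UMIs). At that depth, 19.6% of ASPC-like nuclei of the KO-labelled library (149 of 761, 16.8 to 22.6) had a UMI of Gria3, and 5.78% (44, 4.23 to 7.68) a UMI of Gria4. Before thinning the shares were 38.0% and 10.7%. In the WT-labelled library the thinned Gria3 share was 3.47% (9 of 259, 1.60 to 6.49), from 14.1% before. Grin2b was found in 10.05% of thinned adipocyte-like nuclei of the WT-labelled library (41 of 408, 7.31 to 13.4) and in 2.14% of those of the KO-labelled library (19 of 889, 1.29 to 3.32), from 24.6% and 20.6% before. Grid1 was found in 3.37% of thinned adipocyte-like nuclei of the KO-labelled library (30 of 889, 2.29 to 4.78) and 0.490% of those of the WT-labelled library (2 of 408, 0.0594 to 1.76).

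Free RNA in the droplets was read from lymphocyte-like nuclei, which were not taken to express these genes. Thinned, 0.397% of them (4 of 1007, 0.108 to 1.01) had a UMI of Gria3 in the WT-labelled library and 1.11% (1 of 90, 0.0281 to 6.04) in the KO-labelled library. At full counts the 5 Gria3 UMIs of lymphocyte-like nuclei of the KO-labelled library all lay in 1 nucleus. As a measure of free RNA, that share is therefore weak. The thinned Gria3 shares of adipocyte-like nuclei were 0.980% in the WT-labelled library (4 of 408, 0.268 to 2.49), whose interval overlaps that of lymphocyte-like nuclei, and 0.112% in the KO-labelled library (1 of 889, 0.00285 to 0.625), whose interval also overlaps. They are not read as expression. For Grin2b the lymphocyte-like share was 0 of 1007 nuclei in the WT-labelled library, which allows up to 0.298%, below the adipocyte-like 10.05%. In the KO-labelled library it was 1.11% (1 of 90, 0.0281 to 6.04), and the adipocyte-like share of 2.14% lies within that interval. Gria4 and Grid1 had 0 of 90 lymphocyte-like nuclei there, which allows up to 3.33%, below the 5.78% of Gria4 in ASPC-like nuclei but within the interval of Grid1 in adipocyte-like nuclei. In ASPC-like nuclei of that library, Grin2b and Grid1 each had 0 of 761, which allows up to 0.394%, below the interval of both in adipocyte-like nuclei. Grm7 in ASPC-like nuclei had a thinned share of 0.920% (7 of 761, 0.371 to 1.89). It is under the 3.33% that 0 of 90 lymphocyte-like nuclei allows, and no share below that bound could be separated. It also overlaps the 0.225% of adipocyte-like nuclei (2 of 889, 0.0273 to 0.810). At full counts Grm7 stood at 11.2 CPM against 1.62 CPM in all other kept nuclei, a measured ratio of 6.89 (3.90 to 12.5). Overlap of thinned shares does not show equal levels, but the Grm7 level is not read as expression. Grid1 in adipocyte-like nuclei of the WT-labelled library, at 0.490%, overlaps the 0.298% that 0 of 1007 lymphocyte-like nuclei allows, and it is not read as expression either. The thinning left out 1009 lymphocyte-like nuclei of the WT-labelled library and 38 ASPC-like nuclei, against 14 and 23 in the KO-labelled library.

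**Figure D2:**
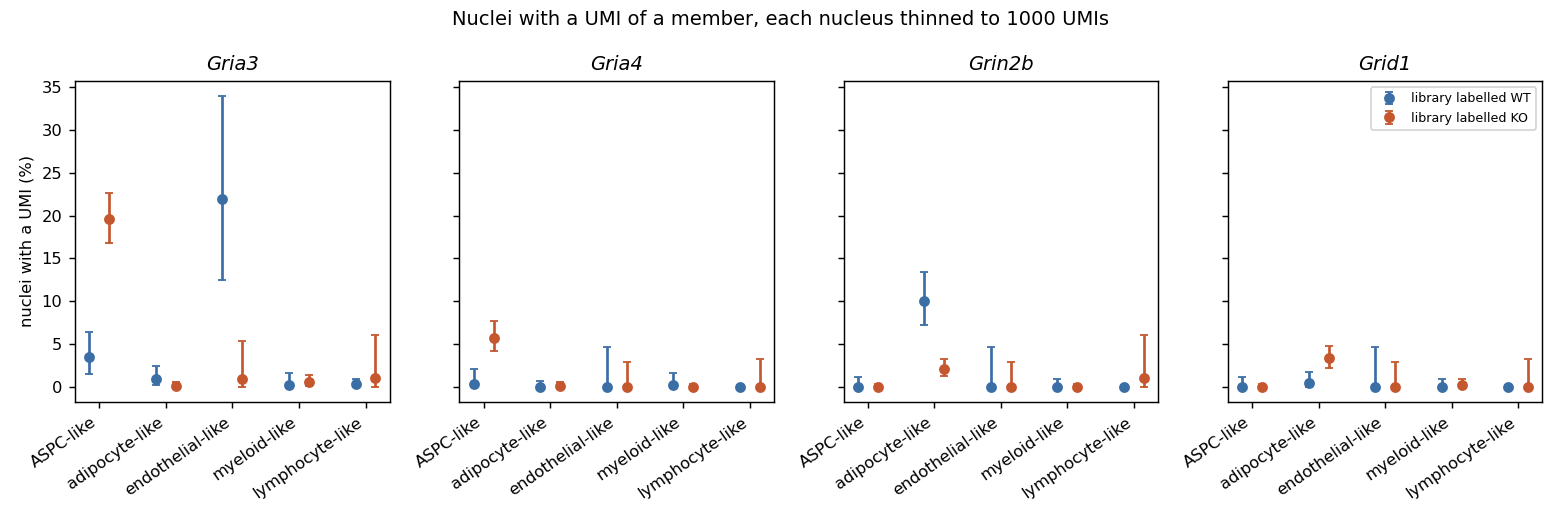
Percentage of nuclei with at least 1 UMI of Gria3, Gria4, Grin2b or Grid1 in 5 classes, after each nucleus was thinned to 1000 UMIs, in the WT-labelled library (blue) and the KO-labelled library (orange). Bars are exact Clopper-Pearson 95% intervals, and at a count of 0 the bar ends at 3 nuclei. Gria3 reaches 19.6% of ASPC-like nuclei of the KO-labelled library and 21.9% of endothelial-like nuclei of the WT-labelled library.

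The 2 stromal subunits were spread differently over the nuclei. Gria3 UMIs lay in 298 of 784 ASPC-like nuclei of the KO-labelled library, with at most 27 in 1 nucleus. Gria4 UMIs lay in 84 nuclei, and the top 3 nuclei held 154 of the 591. Without the 3 nuclei richest in the gene, the ratio of ASPC-like to adipocyte-like nuclei was 104.8 for Gria4, 165 for Gria3 and 3.40 for Grm7, for which 15 of the 37 UMIs lay in 3 nuclei. In adipocyte-like nuclei Grin2b was found in 184 of 894 nuclei with at most 7 UMIs in the KO-labelled library, and in 103 of 418 nuclei with at most 14 in the WT-labelled library. Grid1 was found in 157 nuclei of the KO-labelled library with at most 20.

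Within the stroma of the KO-labelled library, Gria3, Gria4 and Grm7 were highest by CPM in 3 different subclusters. For Grm7 this was not separated at equal depth, and its level is not read as expression. ASPC-like nuclei were clustered again with the glutamate genes left out of the variable genes, and the subclusters are given by number and by their summed level of fixed progenitor lists. In the KO-labelled library, Gria3 was highest in subcluster 1 (274 nuclei), at 474 CPM (436 to 515), where Bmper and Fgf10 were among the leading genes. It stood at 173 CPM (145 to 205) in subcluster 3 and 126 CPM (107 to 147) in subcluster 0, and the ratio of these neighbours in order was 2.74 (2.27 to 3.33) and then 1.38 (1.09 to 1.74). Gria3 is among the markers that the study used for a stromal cluster together with Bmper, so its place there is not independent of that choice.

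Gria4 was highest in subcluster 3 (112 nuclei), at 555 CPM (504 to 610). This subcluster led with Sfrp2 and Gas6 and had the highest summed level of the regulatory progenitor list in that library among subclusters with at least 20 nuclei, 2994 CPM against 762 in subcluster 1 and 78.2 in subcluster 0. Its level of the interstitial progenitor list was 7185 CPM, between the 1198 CPM of subcluster 1 and the 12087 CPM of subcluster 0. Gria4 itself ranked among its leading genes. The 3 nuclei with the most UMIs held 154 of its 436 Gria4 UMIs. Subclusters 0 and 1 had 76.6 CPM (62.2 to 93.4) and 46.8 CPM (35.4 to 60.6) of Gria4. Of the 37 stromal UMIs of Grm7, 34 lay in subcluster 0 (389 nuclei, 26.6 CPM, 18.4 to 37.1), which had the highest level of the interstitial progenitor list, 12087 CPM. Subcluster 1 held the other 3 and subcluster 3 none.

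At equal depth Gria3 and Gria4 were again most frequent in subclusters 1 and 3. Thinned to 1000 UMIs, 33.6% of nuclei of subcluster 1 (91 of 271, 28.0 to 39.5) had a UMI of Gria3, against 12.7% of subcluster 3 (14 of 110, 7.14 to 20.4) and 11.7% of subcluster 0 (44 of 376, 8.63 to 15.4), and the last 2 shares overlap in their intervals. For Gria4 the share was 19.1% in subcluster 3 (21 of 110, 12.2 to 27.7), 3.69% in subcluster 1 (1.78 to 6.68) and 3.46% in subcluster 0 (1.85 to 5.84), so that the order of the last 2 by CPM was not seen in the shares. For Grm7 the share was 1.60% in subcluster 0 (6 of 376, 0.588 to 3.44), 0.369% in subcluster 1 (0.00934 to 2.04) and 0 of 110 in subcluster 3, which allows up to 2.73%, so its peak was not separated at equal depth. Of all 761 thinned ASPC-like nuclei of that library, 149 had Gria3 and 44 had Gria4. Of these, 8 had both genes, 141 had Gria3 alone and 36 had Gria4 alone. No expected overlap was computed, so these counts do not show that the 2 genes avoid each other. Subclusters of the WT-labelled library with at least 20 nuclei had 45.1 to 77.6 CPM of Gria3, with overlapping intervals, and 0 to 4 UMIs of Gria4. Those subclusters were largely separate from those of the KO-labelled library, and only subcluster 3 held at least 20 nuclei of both.

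**Figure D3:**
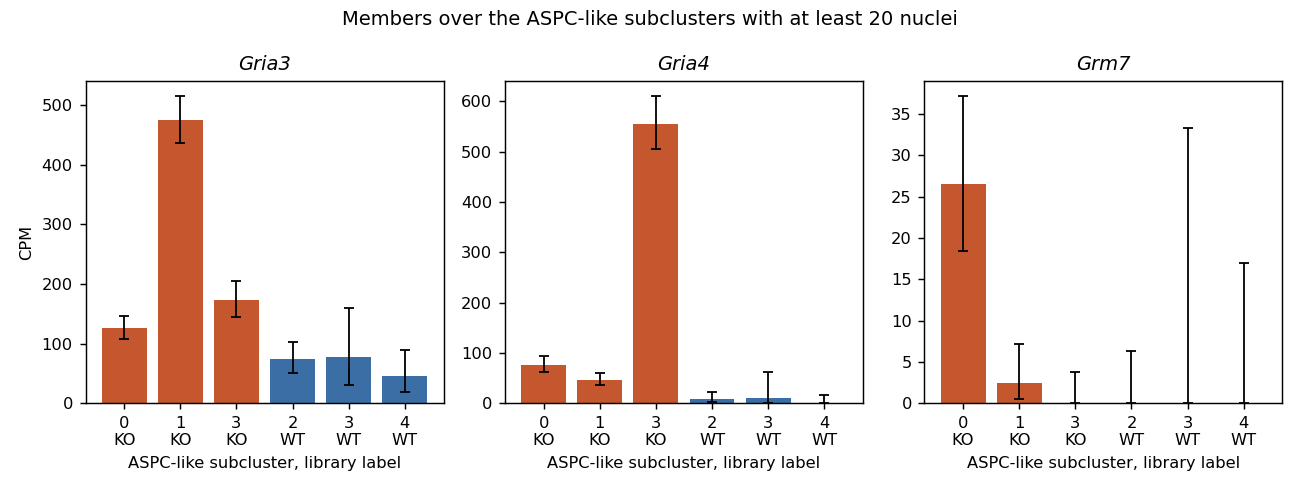
Level of Gria3, Gria4 and Grm7 in CPM over the ASPC-like subclusters with at least 20 nuclei of a library, numbered on the axis with the library label (orange KO, blue WT). Bars are summed UMIs over the subcluster and error bars exact Poisson 95% intervals for counting error, which end at 3 counts where the count is 0. Gria3 peaks at 474 CPM in subcluster 1, Gria4 at 555 CPM in subcluster 3 and Grm7 at 26.6 CPM in subcluster 0, all in the KO-labelled library. The Grm7 peak was not separated at equal depth.

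Further genes of the glutamate system were read from lists, in the KO-labelled library first because few of them reached 50 UMIs in the WT-labelled library. Of 12 other ionotropic receptors listed, 4 were counted there, with 1 higher in ASPC-like and 2 higher in adipocyte-like nuclei, beside the 21.6% and 17.3% of all counted genes, and not all of them are named here. The kainate receptor subunit Grik5 was on the stromal side, at 19.4 CPM in ASPC-like against 8.45 CPM in adipocyte-like nuclei (ratio 2.29, 1.61 to 3.25). The kainate subunit Grik4 was on the adipocyte side, at 7.17 CPM in adipocyte-like and 1.82 CPM in ASPC-like nuclei. Grin1, the subunit every NMDA receptor needs, fell under the count minimum and is named in addition to the rule. It had 26 UMIs in adipocyte-like and 3 in ASPC-like nuclei of the KO-labelled library, and 2 and 1 in the WT-labelled library, beside 303 and 225 adipocyte UMIs of Grin2b.

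Of 14 listed auxiliary subunits of AMPA and kainate receptors, 4 were counted in the KO-labelled library and 0 in the WT-labelled library. Of the 4, 3 were higher in ASPC-like nuclei and 1 in adipocyte-like nuclei, with a median log2 ratio of 4.04, beside 21.6% and 17.3% of all genes and 30.5% and 21.2% of long genes. Shisa6, which keeps AMPA receptors at the synapse, stood at 69.3 CPM in ASPC-like and 3.01 CPM in adipocyte-like nuclei (ratio 23.03, 15.3 to 36.0). Neto1, a partner of kainate receptors, had 117 UMIs (35.4 CPM) and 0 UMIs, at least 102-fold higher, and Shisa9 16.3 and 1.39 CPM (ratio 11.8, 6.22 to 24.2). The exception was Cacng7, of the family of transmembrane AMPA receptor regulatory proteins, at 37.5 CPM in adipocyte-like and 5.14 CPM in ASPC-like nuclei. Within the stroma of that library, Shisa6 lay where Gria3 peaked, at 183 CPM in subcluster 1 (160 to 209) with 7.64 CPM in subcluster 3 and 0 UMIs in subcluster 0, and Neto1 lay in subcluster 0, at 79.0 CPM against 6.56 and 10.2 CPM in subclusters 1 and 3.

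Of 14 listed scaffold and trafficking partners, 10 were counted in the KO-labelled library, with 3 higher in the stroma, 3 higher in adipocytes and a median log2 ratio of -0.47. These counts are near the shares of all genes and of long genes just given. Dlg4, the scaffold protein known as PSD-95, stood at 71.7 CPM in ASPC-like and 0.926 CPM in adipocyte-like nuclei (ratio 77.5, 38.7 to 181), and in the WT-labelled library at 80.6 and 7.17 CPM (ratio 11.2, 6.21 to 21.8). Homer3, a scaffold that links to metabotropic receptors, stood at 26.3 and 8.68 CPM. On the adipocyte side Pick1, which binds AMPA receptor tails during their trafficking, stood at 42.8 against 8.77 CPM in the KO-labelled library and 140.3 against 22.8 CPM in the WT-labelled library, and Grip2, another AMPA receptor binding protein, at 21.4 against 1.82 CPM in the KO-labelled library.

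Of 12 listed genes of glutamate supply and uptake, 5 were counted in the KO-labelled library, with 3 higher in ASPC-like and 2 higher in adipocyte-like nuclei, beside 21.6% and 17.3% of all counted genes and 30.5% and 21.2% of long genes. Slc1a3, a glutamate transporter, stood at 786 CPM in adipocyte-like and 70.5 CPM in ASPC-like nuclei of the KO-labelled library and at 261 and 52.4 CPM in the WT-labelled library. Glul, which makes glutamine from glutamate, stood at 285 and 109 CPM in the KO-labelled library and at 140 and 79.3 CPM in the WT-labelled library. Glud1, which converts glutamate to ketoglutarate, was on the stromal side in both libraries, at 219 against 92.8 CPM and 122 against 45.6 CPM. Levels are not compared between genes here, since CPM is not corrected for length.

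**Figure D4:**
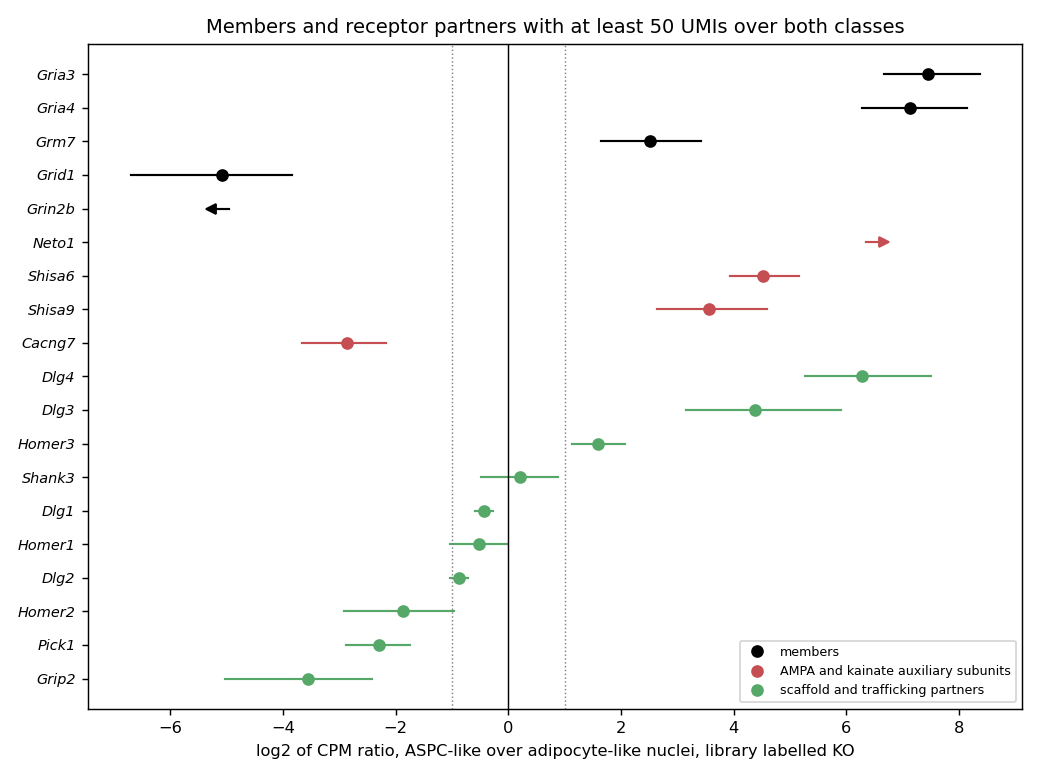
Log2 ratio of CPM in ASPC-like over adipocyte-like nuclei of the KO-labelled library, for members, auxiliary subunits and scaffold or trafficking partners with at least 50 UMIs over both classes, coloured by list. Lines are exact 95% intervals for counting error, dotted lines mark a ratio of 2 either way, and triangles are bounds against 3 counts where 1 side had no UMI, with the open side of the interval not drawn. Among the plotted values, with Neto1 and Grin2b bounds only, Gria3 and Gria4 lie farthest to the stromal side, and Grin2b and Grid1 farthest to the adipocyte side. The interval of Dlg4 overlaps those of Gria3 and Gria4, and without doublet removal the Gria4 ratio was 34.3.

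Between the libraries, the members moved in both directions. In ASPC-like nuclei 2 members were counted and both were at least 2 times higher in the KO-labelled library. Gria3 was 3.94 times higher (2.96 to 5.36). Gria4 was 26.6 times higher (11.3 to 82.3), against 5 UMIs in the WT-labelled library that are not read as expression. The thinned Gria4 share there was 0.386% (1 of 259, 0.00977 to 2.13), which overlaps the 0.298% that 0 of 1007 lymphocyte-like nuclei allows. At full counts all other kept nuclei of the WT-labelled library held 2 UMIs of Gria4. The measured ratio of ASPC-like nuclei to them was 19.7 (3.23 to 207). Of all 9257 counted genes in this class 25.0% were at least 2 times higher in the KO-labelled library and 8.75% at most 0.5 times, but among genes spanning more than 100000 bases it was 64.6% and 2.06%, with a median log2 ratio of 1.50 over those long genes. When the total was taken over long genes alone, the ratio was 1.51 for Gria3 and 10.2 for Gria4, which left Gria4 alone past 2 times. Grm7, with 37 UMIs under the count minimum and a level not read as expression, stood at least 2.78-fold higher, with a counting interval from 2.15. With at least 1000 genes per nucleus it was at least 1.96-fold higher. On the total over long genes its bound was 1.06 with an interval from 0.820, which does not separate the libraries.

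In adipocyte-like nuclei Grid1 was 14.2 times higher in the KO-labelled library (6.84 to 35.5), against 7 UMIs in the WT-labelled library that are not read as expression, and Grin2b was lower, with a ratio of 0.304 (0.255 to 0.363). Here 25.9% of all 11364 counted genes were higher by at least 2 times and 17.6% lower, against 61.1% and 4.19% of the long genes, whose median log2 ratio was 1.38. On the total over long genes the ratio was 5.68 for Grid1 and 0.122 for Grin2b, so that Grin2b stood farther below 1. Gria3 in adipocyte-like nuclei had a ratio of 0.155 (0.0702 to 0.330) on 13 and 19 UMIs, under the count minimum, and 0.343 without doublet removal, but these levels are not read as expression. In endothelial-like nuclei no member reached that minimum, which Gria3 missed with 48 UMIs, and of all counted genes there 32.1% were higher and 15.8% lower. Of the listed genes in adipocyte-like nuclei, Slc1a3 was 3.01 times higher in the KO-labelled library (2.75 to 3.30), Glul 2.03 times (1.79 to 2.31) and Glud1 2.04 times (1.63 to 2.56). Of 5 counted genes of glutamate supply and uptake, 4 were higher there and 0 lower. Of 8 counted scaffold and trafficking partners, 4 were higher and 1 lower, beside the shares of all and of long genes above.

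**Figure D5:**
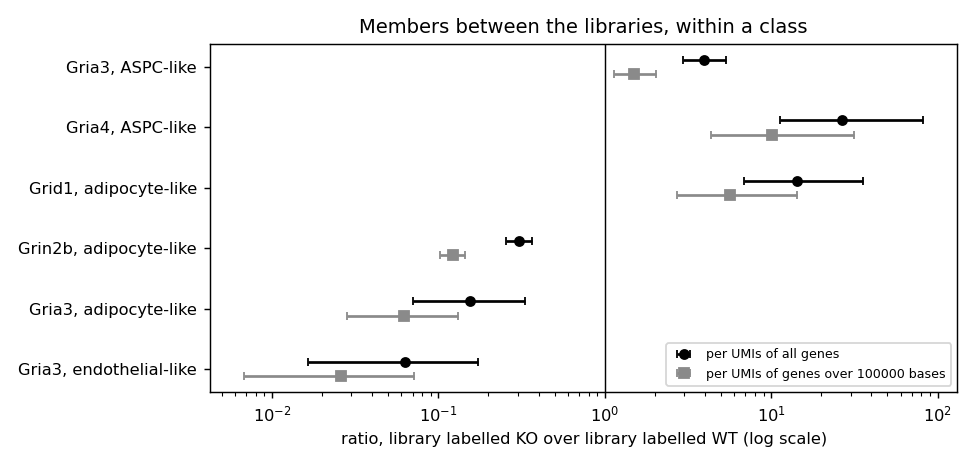
Ratio of the KO-labelled library to the WT-labelled library within a class, on a log axis, for 6 pairs of a member and a class. Black circles divide by UMIs of all genes and grey squares by UMIs of genes spanning more than 100000 bases, with exact 95% intervals for counting error. The second total moves every ratio down, Gria3 in ASPC-like nuclei from 3.94 to 1.51 and Grin2b in adipocyte-like nuclei from 0.304 to 0.122.

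Markers of other cell types were read in the same nuclei. In ASPC-like nuclei the summed level of 10 adipocyte markers was 930 CPM in the WT-labelled library and 760 CPM in the KO-labelled library, and 10 lymphocyte markers had 402 and 5.45 CPM. In adipocyte-like nuclei 10 ASPC markers had 1355 CPM in the WT-labelled library and 636 CPM in the KO-labelled library, beside the Gria3 levels of 9.73 and 1.50 CPM there, and 10 lymphocyte markers had 281 and 13.5 CPM, beside 115 and 35.1 CPM of Grin2b and 3.58 and 50.9 CPM of Grid1. Since glutamate receptors are best known from nerve, 6 neuron and 8 Schwann cell markers were included. In ASPC-like nuclei of the KO-labelled library 5 of 6 neuron markers were detected, summing to 50 UMIs or 15.1 CPM, with Snap25 at 0, and 7 of 8 Schwann cell markers at 489 CPM, with Sox10 at 0. The WT-labelled ASPC-like nuclei had 2 of 6 neuron markers, at 5.38 CPM, and 4 of 8 Schwann cell markers, at 313 CPM. In adipocyte-like nuclei the neuron markers summed to 2.66 CPM in the KO-labelled library and 8.19 CPM in the WT-labelled library. Schwann cell markers there summed to 217 CPM in the KO-labelled library, with 8 of 8 detected. In the WT-labelled library they summed to 172 CPM, with 6 of 8 detected and Sox10 among those at 0. These sums are not ranked against Grin2b, since CPM is not corrected for length. The part of these cells and of free RNA in these values was not tested.

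The genes most like each member were taken by Pearson's r of log2(CPM + 1) over the 12 clusters with at least 20 nuclei of the KO-labelled library. These values describe clusters of 1 library that share its depth and free RNA, and no p-value is given. Gria3 was most like Col6a6 (r = 0.904) and Smpd3 (0.877), and Gria4 most like Plcxd3 (0.967) and Vit (0.936). Over the 10 such clusters of the WT-labelled library these values were 0.431, 0.571, 0.872 and 0.584, of which those for Gria4 rest on 7 UMIs of Gria4, 6 of Plcxd3 and 25 of Vit in that library. For Grin2b they were the transcript AC114585.1 (0.952 and 0.549) and Isca2 (0.923 and 0.659), and for Grid1 A830018L16Rik (0.975 and 0.856) and Inca1 (0.929 and 0.503), where Grid1 has 8 UMIs in the WT-labelled library. Adipocyte-like nuclei of the KO-labelled library formed a single such cluster, so the likeness of Grin2b and Grid1 rests largely on that cluster.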

How the data were processed

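The data were single-nucleus RNA-Seq of iWAT, 1 library for each genotype label. For each library the authors deposited UMI counts of 31053 genes in 5000 barcodes, made by Cell Ranger (6.1.1 in the file headers) on the build mm10 per the labels, whose processing notes also name Seurat 4. Whether intronic reads were counted and whether free RNA was removed is not given in the sources used here. The members, gene lists and markers were chosen with earlier results of these data known. Groups came from the sample labels. The deposited libraries held 9376351 (labelled WT) and 19655049 (labelled KO) UMIs.

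Nuclei with at least 500 genes and at most 5% mitochondrial UMIs were kept. Scrublet in scanpy 1.11.5 marked 92 doublets (KO-labelled library) and 0 (WT-labelled library), and in the latter the top 4% of scores (146) were removed instead. Both libraries were clustered together in Seurat 5.3.0 under R 4.3.3 (scaled to 10000 per nucleus, 2000 variable genes less 21 glutamate genes, 20 principal components, 20 neighbours, Louvain resolution 0.5, no batch correction). Clusters were named from fixed markers found in at least 5% of their nuclei at a CPM at least 2 times the average elsewhere. Names needed 3 such markers, 3 more than any other class, and a top 10 of genes not led by another class. UMIs were summed per class and library and scaled to CPM. Sums have exact Poisson, shares exact Clopper-Pearson and ratios exact conditional binomial 95% intervals, which hold counting error and not the variation among mice. A count of 0 was read as up to 3 counts. No test was made. Ratios were counted past 2 or 0.5 with at least 50 UMIs over both sides. From the lists, at most 4 genes each were named among those past that ratio, highest counts first, and some listed genes are not reported here. Gene spans came from RefSeq (GRCm38.p6), matched by symbol for 25196 of 31053 genes. Ratios and thinning were tested on simulated data. Alternatives were other filters, doublet removal, clusterings, class rules, totals (TMM in edgeR 4.0.16 among them), depths of thinning and count minimums, and, chosen after seeing the data, leaving out the 3 nuclei richest in a gene.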

Additional observations from a re-analysis of the deposited data

Results flagged for a closer look

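The ratio of Gria3 between the libraries lay on different sides of 1 in different classes. The ratio of the KO-labelled library to the WT-labelled library was 3.94 in ASPC-like nuclei, 0.155 in adipocyte-like nuclei and 0.0634 in endothelial-like nuclei, each with a counting interval on 1 side of 1. On the total over long genes these were 1.51 (1.13 to 2.04), 0.0619 and 0.0259. With at least 1000 genes per nucleus the endothelial value was 0.249. The adipocyte value compares levels that are not read as expression, and it was 0.343 without doublet removal. In the endothelial value the level of the KO-labelled library is not read as expression. The difference between classes was not tested, since there was 1 library per genotype label.

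Barcodes that did not pass the filter, which no comparison used, held UMIs of members beyond the 3 counts taken as the floor. In the WT-labelled library, 1351 such barcodes held 49 UMIs of Gria3 (21.2 CPM) and 19 of Grin2b (8.22 CPM). In the KO-labelled library, 2056 such barcodes held 50 UMIs of Gria3 (16.5 CPM), 11 of Gria4, 8 of Grin2b, 13 of Grid1 and 4 of Grm7.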

How the results depend on the processing

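Over the alternatives, 104 counts of members stayed within 1.5 times and 6 moved, while 144 single values stayed within the interval of the main value, 20 moved and 0 of the ratios past the threshold changed direction. Louvain resolutions of 0.2 and 1.0 and glutamate genes left among the variable genes changed the class of 387, 5 and 137 nuclei but of 0 ASPC-like and 0 adipocyte-like nuclei, so they say nothing about those ratios. Classing each nucleus by its own markers moved 431 nuclei into or out of the ASPC-like class, and clustering each library alone moved 23. Without doublet removal the ratio of ASPC-like to adipocyte-like nuclei in the KO-labelled library was 83.4 for Gria3 and 34.3 for Gria4, and 2 members were lower in adipocyte-like nuclei of the KO-labelled library than of the WT-labelled library, as with at least 20 UMIs, since Gria3 was then counted. In endothelial-like nuclei 1 member, Gria3, was lower at that minimum, at resolution 0.2 and with each library clustered alone. On the total over long genes 1 member was higher in ASPC-like nuclei of the KO-labelled library. There Gria3 in adipocyte-like nuclei had a ratio of 0.0619. With resolution 1.0 for the subclusters the peaks were 476 CPM for Gria3, 554 for Gria4 and 35.7 for Grm7. No paired analysis was possible because each genotype label has 1 library and no test was made. In the WT-labelled library Gria4, Grid1 and Grm7 rest on 7, 8 and 0 UMIs in kept nuclei, so their levels there are imprecise.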

Other observations

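The unnamed cluster, with 97 nuclei of the WT-labelled library and 10 of the KO-labelled library, had Ccl22, Fscn1 and Relb among its leading genes. The 149 nuclei like lymph node stroma held 8 UMIs of Gria3 (28.4 CPM, 12.2 to 55.9) in 5 nuclei. These values were picked after they had been seen.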
